A study of Homo sapiens with 2 samples.

Results

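The genes described here are 10 markers of epithelial and mesenchymal state, taken by symbol from a table of 13137 genes measured in A549 cells, a human lung adenocarcinoma line: CDH1, EPCAM, ESRP1, CDH2, VIM, ZEB1, ZEB2, SNAI1, SNAI2 and CD44. All 10 were found in the table. Each of 2 libraries counted the mRNA tags of 1 culture, in a digital gene expression assay that reads a short sequence tag from captured polyadenylated mRNA. The first came from A549-H1tetO-shRNA-Con cells, which carry a scrambled shRNA under a doxycycline-inducible promoter delivered by lentivirus. The second came from A549-H1tetO-shRNA-SOX2 cells, which carry an shRNA against SOX2 in the same vector. Cells of both kinds were kept with doxycycline for 4 days, and per the study's methods each line was a puromycin-selected pool rather than 1 clone. The deposited columns name the samples only as SC and S1, which were read here as initials of shRNA-Con and shRNA-SOX2.

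For the targeted gene no lower mRNA was measured, and with few tags no difference in either direction was detected. SOX2 (Entrez 6657), a transcription factor of stem and lung progenitor cells, had 16 control tags against 23 in the library labelled shRNA-SOX2, and the ratio was 1.58 with a 95% counting interval of 0.800 to 3.20 (Fisher's exact test, adjusted p = 0.333). The comparison below is therefore between a library labelled shRNA-SOX2 and its control, with no lower SOX2 mRNA measured in the former. Were the columns assigned the other way round, every direction given here would be the opposite. The libraries held 2304184 tags on genes for shRNA-Con (called the control below) and 2093816 for the other, which were 65.5% and 60.6% of their clean tags. With 1 library per condition there was no spread between replicates, so each test compares these libraries and not the conditions, and each interval covers counting error only. Fewer cells of a kind and less RNA per cell cannot be told apart in such bulk counts.

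Epithelial cells are held together by E-cadherin junctions and carry a keratin network, whereas mesenchymal cells have N-cadherin and vimentin and move singly. The switch between these states, the epithelial-mesenchymal transition (EMT), is driven by the SNAIL and ZEB families of repressors, which bind E-box sequences at epithelial genes and recruit chromatin-modifying corepressors. Carcinoma cells may hold markers of both states at once, and A549 is widely used as a line that can be moved along this axis.

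Against the control, the library labelled shRNA-SOX2 had 1 of the 10 markers lower and 1 higher past a false discovery rate (FDR) of 0.001. VIM fell to 0.506 times its shRNA-Con level, CD44 rose 1.36-fold, and the other 8 markers, with all 3 epithelial ones and all 4 repressors among them, did not pass. In all, 2849 genes of the table passed, which is 21.7%, so 2 of 10 is near the background. Lower genes made up 12.2% of the table and higher genes 9.53%, beside 1 marker in each direction. Of all calls 56.1% were lower with scaling by gene tags, 66.6% with clean tags, 49.4% with TMM factors and 49.7% with the median ratio, so which direction held more calls depended on the scaling. If cultures are assumed to differ with a biological coefficient of variation of 0.2, neither VIM (edgeR's exact test, adjusted p = 0.148) nor CD44 (adjusted p = 0.629) passed.

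The depth differed widely between the markers. They held 5063 control tags together against 3098, of which VIM and CD44 made up 93.8% and 92.3%. Of the 693 genes in the table with 1000 tags or more in all, as VIM and CD44 had, 72.4% passed the test. Of the 6797 genes with 20 to 249 tags, the range of CDH1, CDH2, ZEB1 and SNAI2, 16.7% passed, and of genes with fewer than 20 tags, as for EPCAM, ZEB2, SNAI1 and ESRP1, 1.20% did.

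The promoters of VIM and CD44 are shown because these were the markers that passed the test. Each sequence is the 250 bases before the annotated start of transcription in RefSeq on build GRCh38.p14, read on the plus strand, on which both genes lie: chr10:17227991-17228240 for VIM and chr11:35138921-35139170 for CD44. Capitals mark GC boxes, searched as GGGCGG on either strand.
VIM: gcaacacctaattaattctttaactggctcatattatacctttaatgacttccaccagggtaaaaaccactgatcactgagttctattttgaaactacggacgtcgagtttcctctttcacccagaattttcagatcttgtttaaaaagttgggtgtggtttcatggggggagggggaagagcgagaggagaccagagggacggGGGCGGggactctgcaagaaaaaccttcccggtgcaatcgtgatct
CD44: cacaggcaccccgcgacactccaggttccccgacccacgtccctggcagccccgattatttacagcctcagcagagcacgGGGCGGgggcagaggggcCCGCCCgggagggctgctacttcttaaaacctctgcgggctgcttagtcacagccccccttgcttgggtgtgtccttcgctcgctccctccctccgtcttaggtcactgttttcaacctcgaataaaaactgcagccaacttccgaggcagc
The VIM window held 1 GC box, 46 to 41 bases before the start, and the CD44 window 2, at 170 to 165 and 152 to 147 bases before it. GC content was 46% for VIM and 62.4% for CD44, against a median of 58% over all 35116 promoter windows. Neither window held CACCTG on either strand, an E-box that SNAIL and ZEB proteins can bind, or the AP-1 motif TGANTCA. Among all windows 17.5% held this E-box, 42.6% a GC box and 6.57% the AP-1 motif. RefSeq windows were at hand for 5 of the 10 markers, and among these the E-box letters occurred for ZEB1. A GC box occurred for CD44, CDH2, VIM and ZEB1, so also for markers that did not pass, and the AP-1 motif for CDH2. A match of letters is a description and does not show that a factor binds there.

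Among the epithelial markers, no difference was detectable at this depth. CDH1 (Entrez 999) encodes E-cadherin, the adhesion receptor of adherens junctions. It had 50 control tags against 50 in the library labelled shRNA-SOX2, which is 21.7 and 23.9 CPM (tags scaled to the gene tags of the library). The counts were equal, and after scaling the ratio was 1.10 with an interval of 0.729 to 1.66 (Fisher's exact test, adjusted p = 0.796). Against 50 control tags, 16 or fewer or 87 or more would have been needed to pass, a ratio of 0.352 or 1.91. EPCAM (Entrez 4072), an epithelial surface adhesion molecule, had 8 control tags against 4. Its ratio of 0.550 had an interval from 0.121 to 2.05, wide on both sides of 1 (Fisher's exact test, adjusted p = 0.540), and no count below that of shRNA-Con, down to 0, could have passed. ESRP1 (Entrez 54845), an RNA-binding protein that sets epithelial splicing patterns, had 2 control tags against 0 in the library labelled shRNA-SOX2. Both counts were under the floor of 3 tags used for fold changes, so no fold is given.

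The structural mesenchymal markers did not move alike in size. VIM (Entrez 7431) encodes vimentin, the intermediate filament of mesenchymal cells, which many cultured carcinoma lines also make. It had 3872 control tags against 1780 in the library labelled shRNA-SOX2, or 1680 and 850 CPM. More tags were counted for VIM than for 99.5% of control genes, and than for 98.9% of genes in the other library, so it stayed among the most counted mRNAs in both. The ratio was 0.506 with an interval of 0.478 to 0.535, and the log2 fold change was -0.98 (Fisher's exact test, adjusted p = 1.70e-131). Of the 693 genes with at least 1000 tags, 67 had a lower log2 fold change than VIM.

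CDH2 (Entrez 1000) encodes N-cadherin, the cadherin of mesenchymal and neural cells. It had 97 control tags against 69 in the library labelled shRNA-SOX2. The count was lower in the latter, but the ratio of 0.783 had an interval of 0.566 to 1.08 that included 1 (Fisher's exact test, adjusted p = 0.225). To pass it needed 46 tags or fewer or 144 or more, so a fall to 0.522 times the control level was the smallest that these counts could have called.

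CD44 (Entrez 960) encodes a receptor for hyaluronan, present on many epithelial and mesenchymal cells in splice forms that these gene-level tags do not separate. It had 875 control tags against 1080 in the library labelled shRNA-SOX2, or 380 and 516 CPM. Unlike VIM, it was higher in the latter. The ratio was 1.36 with an interval of 1.24 to 1.49, and the log2 fold change was 0.44 (Fisher's exact test, adjusted p = 2.03e-10). Among genes with at least 1000 tags, 171 of 693 had a higher log2 fold change.

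None of the 4 EMT repressors passed the test. ZEB1 (Entrez 6935), a zinc-finger and homeobox repressor of CDH1, was the best counted of them, with 128 control tags against 92 in the library labelled shRNA-SOX2. Its ratio of 0.791 had an interval of 0.598 to 1.04, close in size to that of CDH2 (Fisher's exact test, adjusted p = 0.183). A count of 66 or fewer, or of 179 or more, would have passed. ZEB2 (Entrez 9839), its paralogue, had 6 and 11 tags, a ratio of 2.02 with an interval of 0.684 to 6.64 (adjusted p = 0.355, same test). SNAI1 (Entrez 6615), which encodes SNAIL, had 9 and 7 tags, a ratio of 0.856 with an interval of 0.271 to 2.58 (adjusted p = 0.889, same test). The counts of both were too low to show a difference of these sizes. SNAI2 (Entrez 6591), which encodes SLUG, had 16 control tags against 5 in the library labelled shRNA-SOX2. Among the 8 markers that did not pass, SNAI2 alone had an interval that did not reach 1, with a ratio of 0.344 and an interval of 0.0985 to 0.982 (Fisher's exact test, adjusted p = 0.0748). With 16 control tags, 0 tags would have been needed for SNAI2 to be called lower, and for ZEB2 and SNAI1 no lower count would have sufficed.

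**Figure D1:**
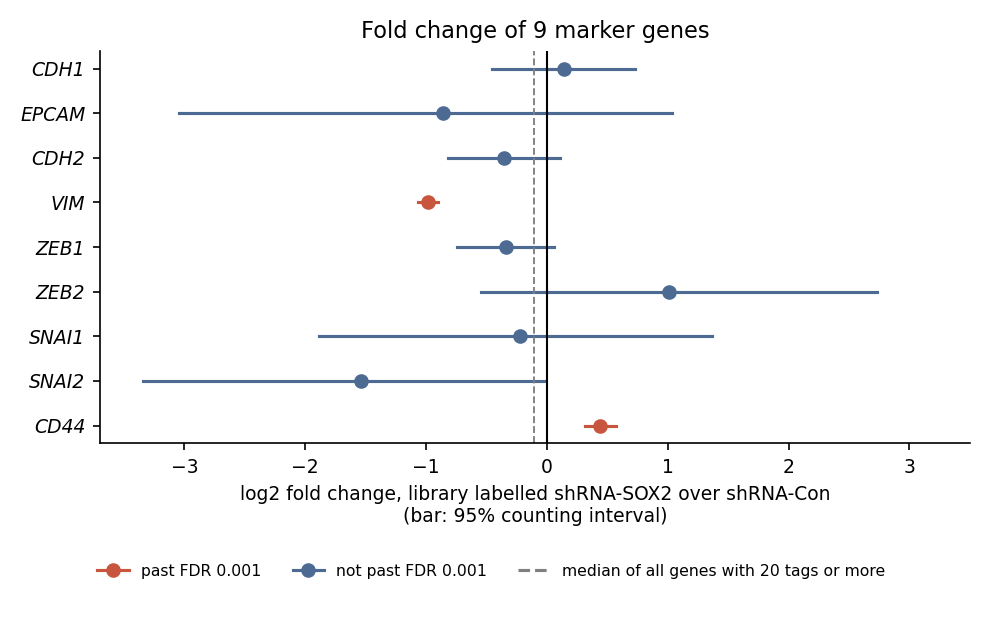
Log2 fold change, library labelled shRNA-SOX2 over shRNA-Con, of the 9 markers with a fold, with bars for the 95% counting interval and the dashed line at -0.10, the median of all genes with at least 20 tags. VIM at -0.98 and CD44 at 0.44 (red) passed FDR 0.001, and the bars of EPCAM, ZEB2, SNAI1 and SNAI2 are the widest.

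By a rule of size alone, 2 of the 9 markers with a fold, SNAI2 and ZEB2, differed at least 2-fold, beside 25.3% of the 11984 genes in the table with a fold. Neither passed the test, and VIM, at 1.98-fold lower, fell just short of the rule. Of the 9 markers 6 had lower values and 3 higher ones in the library labelled shRNA-SOX2. CDH1, with equal counts before scaling, was among the higher. Of all genes with at least 20 tags, 44.9% had higher values. The 6 markers with at least 20 tags had a median log2 fold change of -0.35, and the 10045 genes of the table with as many tags had one of -0.10. Relative to the latter, VIM stood at -0.88 and CD44 at 0.54.

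Ratios between markers of 1 library do not depend on how the libraries are scaled. Tags are not corrected for length or capture, so a ratio is not that of the mRNA levels, and what is compared is the ratio between libraries. For each tag of CDH1 the control held 77.4 tags of VIM, and the library labelled shRNA-SOX2 held 35.6. The CDH1 to VIM ratio was thus 2.17 times higher in the latter, with a 95% exact interval of 1.43 to 3.30. With the CDH1 counts equal, this is the fall of VIM tags before scaling. After scaling, VIM was 1.98-fold lower and CDH1 stood at 1.10 times its control level. The cadherin pair, CDH1 to CDH2, had ratios of 0.515 and 0.725, which differed by 1.40 times with an interval of 0.827 to 2.39. The EPCAM to VIM ratio differed by 1.09 times, with an interval of 0.239 to 4.07. For SNAI2 to SNAI1 the ratios were 1.78 and 0.714, a change of 0.412 times with an interval of 0.0771 to 2.03. Of these pairs, CDH1 to VIM was the only one whose interval did not include 1. For ESRP1 to ZEB1, with 0 ESRP1 tags in 1 library, the interval had only an upper bound, of 7.52.

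Other genes of the same programmes were taken from lists and are given as counts beside the 21.7% of all genes called. Deeper counts pass more often, and of genes with at least 20 tags 28.0% were called. At that depth the share called was 50% of the epithelial list, 40% of the mesenchymal list and 54.5% of the cadherin partners. It was 40% of the CD44 list, 11.1% of the corepressors, 55.6% of the splicing regulators and 75% of the ESRP target genes. How far depth accounts for these shares was not tested. Of 33 further epithelial genes, 22 were found in the table, of which 3 were higher, 4 were lower and 15 did not pass (31.8% called). The median log2 fold change of the 14 with at least 20 tags was -0.16. KRT19, a simple epithelial keratin, had 35 control tags against 127 in the library labelled shRNA-SOX2, and KRT8, another, had 7702 and 12729. KRT7, a keratin of glandular epithelia, fell from 3899 tags to 1606. Of the tight junction genes, TJP1, a scaffold protein, fell from 395 tags to 168, and CLDN1, a claudin, from 577 to 253. SPINT2, an inhibitor of epithelial serine proteases, rose from 567 tags to 817. Keratins thus differed in both directions, as did the list.

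Of 35 further mesenchymal genes, 23 were found, of which 7 were higher, 1 was lower and 15 did not pass (34.8% called). The median log2 fold change of the 20 with at least 20 tags was 0.68, opposite in sign to that of VIM. TGFBI, a matrix protein induced by TGF-β, had 1798 control tags against 4354 in the library labelled shRNA-SOX2, which is 1.41 on the log2 scale. COL6A1, a chain of collagen VI, had 44 and 158 tags, or 1.98 on the log2 scale. ITGA5, the fibronectin receptor subunit, rose from 28 tags to 67, and TPM2, an actin-binding tropomyosin, from 186 to 328. The lower gene was COL5A1, a chain of collagen V, with 359 and 142 tags. With scaling by clean tags FN1, which encodes fibronectin, was no longer called higher, and AXL, a receptor tyrosine kinase, was called lower. Both are named after their values were seen. VIM and most called genes of this list differed in opposite directions.

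Among 12 partners of the cadherins, all were found, and 4 were higher and 2 lower (50% called). The median log2 fold change was -0.30 for the 11 with at least 20 tags and 0.15 for the 8 with at least 100. JUP, which encodes plakoglobin, rose from 165 control tags to 341. CTNND1, which encodes p120-catenin, rose from 270 to 373, and CTNNB1, which encodes β-catenin, from 193 to 266. CTNNA1, the α-catenin that links cadherins to actin, fell from 616 to 416. NECTIN2, an adhesion receptor listed as PVRL2, rose from 63 to 125, and AFDN, its actin linker listed as MLLT4, fell from 89 to 39. The call of CTNNB1 was lost with scaling by clean tags (Fisher's exact test, adjusted p = 0.00156) and that of AFDN with TMM factors (adjusted p = 0.00159). With clean tags VCL, which encodes vinculin and was singled out after its value was seen, was called lower, which made 3 partners higher and 3 lower. CDH1 itself had equal counts, but with 100 tags in all it needed a ratio of 0.352 or 1.91 to pass. Of the 6 partners that passed, CTNND1 and CTNNB1 at 1.52, CTNNA1 at 0.743 and AFDN at 0.482 lay within those bounds. JUP at 2.27 and NECTIN2 at 2.18 lay beyond them. All 6 had more tags in the libraries together than CDH1, from 128 for AFDN to 1032 for CTNNA1. The part of depth in these calls was not tested.

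Of 16 ligands, linkers and sheddases of CD44, 12 were found, with 3 higher and 1 lower (33.3% called) and a median log2 fold change of -0.10 over the 10 with at least 20 tags. SPP1, which encodes osteopontin, a CD44 ligand, had 343 control tags against 1130 in the library labelled shRNA-SOX2. MSN, which encodes moesin, a linker of CD44 to actin, had 454 and 1010 tags, and its relative RDX, which encodes radixin, had 250 and 313. HMMR, a second hyaluronan-binding protein that is also a mitotic gene, fell from 140 tags to 36. CD44 and these 3 higher genes differed in the same direction, but RDX was no longer called with scaling by clean tags (Fisher's exact test, adjusted p = 0.0147). The other 8 genes found did not pass, and the list median of -0.10 was that of all genes, so the list as a whole did not follow CD44.

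Of 19 corepressors and turnover factors of the SNAIL and ZEB proteins, all were found and 2 passed, both lower, which is 10.5% of them. AJUBA, a LIM-domain corepressor of SNAIL listed as JUB, had 458 control tags against 110 in the library labelled shRNA-SOX2. HDAC2, a histone deacetylase, had 404 and 261, a call that was lost with TMM factors (Fisher's exact test, adjusted p = 0.00117). The 17 others did not pass, and the median log2 fold change of the 18 with at least 20 tags was -0.012.

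For the splicing programme that ESRP1 belongs to, all 10 other regulators listed were found, with 1 higher and 4 lower (50% called) and a median log2 fold change of -0.10 over the 9 with at least 20 tags. PTBP1, a polypyrimidine tract-binding repressor of exons, fell from 251 control tags to 100. TRA2B, an exon-promoting splicing factor, fell from 421 to 174, SRSF1, an SR protein, from 813 to 454, and QKI, a regulator of mesenchymal splicing, from 363 to 210. KHDRBS1, which encodes SAM68, rose from 249 to 373. Of 5 genes whose exons ESRP proteins regulate, CD44 and CTNND1 were higher and ENAH, an actin regulator, was lower, with 437 and 227 tags (60% called), and the 4 of these genes with at least 20 tags had a median log2 fold change of 0.35. Of the ESRP target genes, CD44 is itself a marker and CTNND1 is also on the list of cadherin partners, so their calls are not additional ones. Exon use itself was not measured by these tags.

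Markers of other cell types were low in both libraries. Of 7 fibroblast markers 4 were found, with 53 control tags together against 68. The most counted, COL1A1, had 44 and 43 tags, and THY1 had 7 and 14, and 0 of the 4 passed. Both of these genes are also on the mesenchymal list, and neither was among its called genes. Of 5 leukocyte markers 3 were found, with 16 and 15 tags together, of which CD14 had 11 and 10 and ITGAM 3 and 3, while PTPRC, which encodes the pan-leukocyte antigen CD45, had 2 and 2. Of 5 endothelial markers 1 was found, PECAM1, with 3 tags and 0. The part of such cells in the marker differences was not tested. The lung epithelial line was marked mainly by its keratins. Of the 10 markers listed for it, 6 were found, with 22010 and 22400 tags together. These close totals hide differences in both directions. Of the 6, 4 passed (66.7%, beside 21.7% of all genes), with KRT8 and KRT19 higher and KRT7 and KRT18 lower. KRT18 had 10318 control tags against 7887. Beyond keratins, ABCA3, a lipid transporter of alveolar cells, had 56 and 45 tags, and NAPSA, a lung aspartic protease, 0 and 6. The surfactant genes SFTPA1, SFTPB and SFTPC and the lung regulator NKX2-1 were looked for and not found in the table.

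In GENCODE release 29, 6 of the 10 markers are overlapped by an antisense gene: CDH1, CDH2, VIM, ZEB1, ZEB2 and CD44. Whether the tags were counted by strand is not given in the sources used here, so reads of such partners cannot be told apart from those of the marker.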

How the data were processed

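The tag counts per Entrez Gene ID were deposited by the authors with no normalization, and the Beijing Genomics Institute had made them from mRNA purified on oligo(dT) beads. The authors' TPM columns hold the counts scaled by clean tags, with 0 written as 0.01, and served here only to obtain each library's clean tags. The build in the submitters' processing notes is hg19, and the aligner and annotation are not given in the sources used here. Deposited columns of the authors' own comparison (log2 ratio, p-value, FDR) were not used.

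Counts were scaled by gene tags, with counts below 3 set to 3 for fold changes. Fisher's exact test (two-sided) compared each gene, and p-values were adjusted after Benjamini-Hochberg over all 13137 genes, at FDR 0.001. Ratio intervals are 95% Clopper-Pearson intervals, and those of pair ratios are conditional exact intervals. Medians use genes with at least 20 tags. Scaling factors came from edgeR 4.0.16 and DESeq2 1.42.0 in R 4.3.3, as did edgeR's exact test with an assumed spread, and all else from scipy 1.17.1 in Python 3.11.15. Fisher's exact test and the ratio intervals were tested on simulated counts that held counting error only, with no spread between cultures.

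The markers and gene lists were chosen with earlier results of these data known. Genes named are the 10 markers, SOX2, up to 5 called genes per list with the largest change, up to 3 in the direction with fewer calls, and the 2 most counted markers of each other cell type. Of the gene IDs, 13086 were found in RefSeq, and rows without a symbol held 0.0535% of the control's gene tags and 0.0372% of those of the other library. The table's gene coordinates, which name no chromosome, were not used. The result of 1 further list gene under an alternative is not reported here. Alternatives were TMM, median-ratio and clean-tag scaling, a minimum of 10 tags, 0.5 added to each count, an assumed biological coefficient of variation, an FDR of 0.05, and a minimum of 100 tags for medians.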

Additional observations from a re-analysis of the deposited data

How the results depend on the processing

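With scaling by TMM factors, the median ratio or clean tags, VIM stayed between -0.91 and -1.10 on the log2 scale and CD44 between 0.33 and 0.51. The count of markers called was 2 under each, as it was with at least 10 tags and at FDR 0.05. Genes called over the table numbered 2795, 2786 and 3018 under these scalings and 2899 with at least 10 tags. The share of all genes at FDR 0.05 was not counted, so the marker count there has no background beside it and cannot be read as a result about the markers. Clean tags moved the median of all genes by -0.11. No fold change of a marker or called list gene reversed. In edgeR's exact test with the biological coefficient of variation assumed to be 0.1, 0.2 and 0.4, the adjusted p of CD44 (0.44) was 0.130, 0.629 and 1. That of VIM (-0.98) was 5.58e-05, 0.148 and 1. Markers called then numbered 1, 0 and 0, and genes called over the table numbered 1166, 113 and 0, against 2849. At an unadjusted p under 0.05 in the same test the markers numbered 2, 1 and 0. The share of all genes under that threshold was not counted, so these numbers cannot be set against a background. Markers changed at least 2-fold numbered 1 (SNAI2) with 0.5 added to each count, and with clean tags they were SNAI2 and VIM. With at least 100 tags, the list medians relative to all genes were 0.062 for epithelial genes (-0.055 with at least 20 tags), 0.62 for mesenchymal genes (0.79) and 0.28 for cadherin partners (-0.19). Those of the epithelial genes and cadherin partners thus changed sign, and the cause was not tested. Corepressors called numbered 1 with TMM factors and 1 with the median ratio, against 2. Of 33 list genes called, 31 stayed called with TMM factors, 30 with clean tags and 0 with an assumed coefficient of 0.2. No paired analysis was possible because no condition had more than 1 library, and no replicate could be left out.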
